A study of Homo sapiens with 6 samples.

Results

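SMURF2, its close relative SMURF1 and 8 other genes of transforming growth factor beta (TGF-beta) signalling were followed in A549 cells, a human lung adenocarcinoma line, after silencing of NME2. The other 8 were the ligands TGFB1 and TGFB2, the receptors TGFBR1 and TGFBR2, and SMAD2, SMAD3, SMAD4 and SMAD7. All probe sets that the array annotation assigns to 1 of these 10 symbols alone were taken. They were 37 of the 54613 probe sets on the array, and the 10 genes were 10 of the 19775 that had such a probe set. SMURF2 was chosen by the measured difference of its brightest probe set between these same arrays. Its difference is therefore given as a description that supports nothing, and the other genes were picked for their part in the same pathway.

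NME2 encodes a nucleoside diphosphate kinase that is described as a metastasis suppressor and DNA-binding factor. Its transcript was silenced transiently with small interfering RNA (siRNA) in the NME2-depleted cells, and control cells received control siRNA. Each condition was hybridised to 3 arrays, with no other treatment and no time after transfection given. The 3 are described as biological replicates without mention of separate cultures, so p-values cover the spread of these arrays, which may be technical, and fewer cells with a transcript cannot be told apart from less of it per cell.

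TGF-beta is a secreted protein that binds a type II receptor (TGFBR2), which then activates a type I receptor (TGFBR1). The type I receptor phosphorylates SMAD2 and SMAD3, which join SMAD4, enter the nucleus and regulate transcription. SMAD7 is induced by the pathway and inhibits it, in part by bringing the ubiquitin ligases SMURF1 and SMURF2 to the receptor, which is then degraded. In epithelial cells the pathway restrains growth and promotes the transition to a mesenchymal state.

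SMURF2 and SMURF1 belong to the same family of HECT-type ligases, and their promoters are shown for that reason. All 10 genes had a window in the RefSeq promoter table (GRCh38.p14), which spans 250 bases before and 50 bases after a transcription start. The window of SMURF2 lies at chr17:64662258-64662557 and that of SMURF1 at chr7:99144059-99144358, both on the minus strand. Capitals mark CAGAC, a short SMAD-binding sequence, and GGGCGG, the GC box, on either strand, and overlapping GC boxes run together.
SMURF2: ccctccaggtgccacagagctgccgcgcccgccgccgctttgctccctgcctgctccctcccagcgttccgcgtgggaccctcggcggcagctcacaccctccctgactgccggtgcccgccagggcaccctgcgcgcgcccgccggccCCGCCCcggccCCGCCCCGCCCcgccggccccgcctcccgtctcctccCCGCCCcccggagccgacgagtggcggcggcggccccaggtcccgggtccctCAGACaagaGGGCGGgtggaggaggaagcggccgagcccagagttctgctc
SMURF1: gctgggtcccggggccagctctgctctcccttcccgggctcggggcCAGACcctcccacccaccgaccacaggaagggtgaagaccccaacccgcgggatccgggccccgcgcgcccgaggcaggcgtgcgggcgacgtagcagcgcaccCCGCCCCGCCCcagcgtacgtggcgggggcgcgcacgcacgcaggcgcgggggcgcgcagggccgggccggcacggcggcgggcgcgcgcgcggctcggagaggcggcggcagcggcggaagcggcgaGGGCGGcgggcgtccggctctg
Both windows were rich in G and C, at 79.3% for SMURF2 and 81.7% for SMURF1, against a median of 58.7% over all windows. CAGAC stood once in each, a match also found in 45.3% of all 35116 promoter windows. GC boxes numbered 5 in the SMURF2 window and 3 in the SMURF1 window, and 45.0% of all windows held at least 1. The palindrome GTCTAGAC, a stronger SMAD-binding sequence, was in neither of them and in 0.202% of all windows. These matches describe letters only, and the promoters of both genes held the same kinds.

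Signals are array intensities on a linear scale, and each difference is the log2 signal of NME2-depleted arrays minus that of control arrays, with the standard error (SE) of a limma fit over all tested probe sets. A probe set was tested when its mean log2 signal reached the median of the array, a signal of 71.7, and p-values were adjusted by the Benjamini-Hochberg method over the 27307 that did. The silenced transcript was low in each depleted array, where the NME2 probe set, which also carries the NME1-NME2 read-through, had 1920, 3676 and 3216, against 17862, 19389 and 21044 in control arrays. The ratio of 3' to 5' signal of ACTB, a sign of RNA quality, was 1.36 ± 0.04 in NME2-depleted and 1.25 ± 0.05 in control arrays (SD, n = 3 each), without overlap, so it moved with the groups in every comparison below and its part in them was not tested. MX1, an interferon-induced gene, had 531.3 to 3299 in control arrays and 112.3 to 144.9 in NME2-depleted arrays, without overlap. It too moved with the groups, and its part in the comparisons was not tested. Control replicate 1 stood apart in MX1 with 3299, against 531.3 and 697.8 in the other control arrays. Of 5 epithelial markers 0 were called, where 0.54% of all genes were, and groups did not overlap in 20.6% of all genes. KRT18 (27676 to 31232 in NME2-depleted and 28232 to 32107 in control arrays) and KRT19 overlapped between groups, EPCAM (log2 difference 0.71, adjusted p = 0.0884) and CDH1 (0.21, adjusted p = 0.324) had all depleted arrays above all control arrays, and KRT8 (-0.24, adjusted p = 0.209) had them all below. Of 5 alveolar markers SFTPB, SFTPC and NAPSA were tested, with overlap and 0 calls, and SFTPD and NKX2-1 lay under the filter on average. SFTPD had all depleted arrays (13.8 to 42.4) above all control arrays (8.9 to 13.1), and NKX2-1 overlapped. Markers of fibroblasts, leukocytes and endothelium had summed signals of 622.6 to 727.4, 314.7 to 443.4 and 286.4 to 394.6 in NME2-depleted arrays, against 508.1 to 724.7, 370.5 to 461.4 and 212.4 to 314.1 in control arrays. Of the 15 with a probe set 6 could be tested and 0 of these were called, where 0.54% of all genes were. They were LUM, DCN, THY1, CD14, CD3E and PECAM1, all with overlap and the highest at 349.5 (CD14, in a control array). Among the 9 under the filter PDGFRA had 70.5, 66.2 and 59.2 in NME2-depleted arrays, against 54.1, 46.2 and 39.1 in control arrays, without overlap. The rest of the 9 overlapped and reached at most 57.4 (PDGFRB, in an NME2-depleted array), and PTPRC, CDH5 and POSTN stayed at or under 34.2. The part of these markers in the results was not tested.

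SMURF2 had a higher mean in NME2-depleted cells at all 4 of its probe sets, by similar amounts. The brightest had signals of 2025, 2014 and 2028 in NME2-depleted arrays, against 1572, 1211 and 1355 in control arrays. The 3 depleted arrays were nearly identical and all lay above the control arrays, of which replicate 2 was lowest. The mean was 2022 ± 7.16 in NME2-depleted and 1379 ± 182 in control cells (SD, n = 3 each), which is 1.47-fold higher, with a log2 difference of 0.56 (SE 0.10). Nearly all the spread at this probe set was thus among control arrays.

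The other 3 SMURF2 probe sets were dimmer. The second brightest had 844.8, 676.7 and 664.7 in NME2-depleted arrays, against 617.3, 511.5 and 438.3 in control arrays, with no overlap (log2 difference 0.49, SE 0.15). The third had 407.5, 610.9 and 630.6 in NME2-depleted arrays, against 432.6, 334.1 and 338.5 in control arrays. Here depleted replicate 1 lay below control replicate 1, so the groups overlapped although the difference was as large (0.56, SE 0.18). The fourth had 178.7, 158 and 177.1 in NME2-depleted arrays, against 127.9, 100.7 and 128 in control arrays, again without overlap (0.53, SE 0.21).

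Folds of the 4 SMURF2 probe sets lay between 1.40 and 1.47. All 684 genes with 4 tested probe sets were examined in the same way, and in 213 of them (31.1%) the 4 differences had 1 sign, so a shared sign is common. The brightest probe set was the only one of the 4 to pass an adjusted p of 0.05, a threshold passed by 0.396% of all tested probe sets and, upwards, by 0.117%. It has an s suffix, so it may share sequence with other transcripts, and the other 3 had limma adjusted p-values from 0.194 to 0.317. That call was how the gene was found and is not read further. It was lost without each of NME2-depleted replicates 1, 2 and 3 and control replicates 2 and 3 (adjusted p from 0.107 to 0.136), and kept without control replicate 1, where the difference was 0.66. It was also lost with arrays centred on their median (adjusted p = 0.0812), with no filter on dim probe sets (0.0878) and with no intensity trend in the variance (0.265). The sign was the same at all 4 probe sets whichever array was left out, with differences from 0.37 to 0.76.

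**Figure D1:**
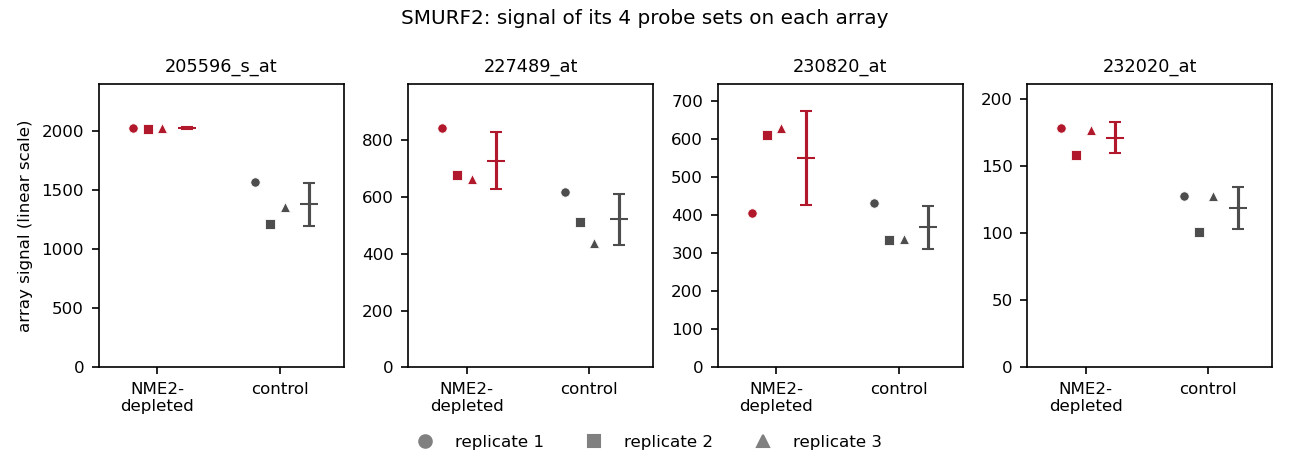
Array signal (linear scale, vertical axis) of the 4 SMURF2 probe sets in NME2-depleted (left, red) and control (right, grey) arrays. Symbols are replicates, and bars are the mean and SD of 3 arrays; the brightest probe set averaged 2022 in NME2-depleted and 1379 in control cells.

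SMURF1, which also targets SMADs and the small GTPase RHOA for degradation, had 5 probe sets, of which none passed the threshold. The brightest had signals of 1181, 1075 and 1103 in NME2-depleted arrays, against 1183, 1144 and 1069 in control arrays. The groups overlapped, and the log2 difference was -0.02 with a 95% interval from -0.21 to 0.18. The difference between SMURF1 and SMURF2 was not tested, since SMURF2 was chosen for its value. The other SMURF1 probe sets had differences from -0.25 to 0.06 with mixed signs, and all overlapped between groups. The sign of the brightest turned without NME2-depleted replicate 2 (0.01) and without control replicate 1 (0.02).

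The ligands showed no called difference. TGFB1, the best-known form, had 4423, 4186 and 4485 in NME2-depleted arrays, against 4429, 4349 and 4805 in control arrays at its brightest probe set (log2 difference -0.05, 95% interval -0.21 to 0.10). Its other probe set lay under the filter, at 43.1 to 84.7 in NME2-depleted and 25.8 to 108.9 in control arrays. TGFB2, a related ligand, had 1045, 986.6 and 791.4 in NME2-depleted arrays, against 996.4, 1043 and 1019 in control arrays (-0.13, 95% interval -0.37 to 0.12). Only depleted replicate 3 lay clearly outside the range of the control arrays. The 3 other tested TGFB2 probe sets gave -0.10, -0.09 and 0.33, all with overlap, and its dimmest probe set was under the filter.

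Neither receptor passed the threshold. TGFBR1, the kinase that phosphorylates SMADs, had 3487, 3415 and 3720 in NME2-depleted arrays, against 3831, 3463 and 3229 in control arrays, a log2 difference of 0.02 (95% interval -0.16 to 0.19). TGFBR2, the receptor that binds the ligand first, had 4686, 4453 and 4660 in NME2-depleted arrays, against 5725, 4853 and 5086 in control arrays. All depleted arrays were below all control arrays for TGFBR2, but the difference of -0.18 (SE 0.08, limma adjusted p = 0.359) missed the threshold. Its second, dimmer probe set gave -0.14 with overlap, and those of TGFBR1 gave 0.06 and 0.26 with overlap. The TGFBR1 difference turned to -0.02 without NME2-depleted replicate 3 and to -0.04 without control replicate 3.

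**Figure D2:**
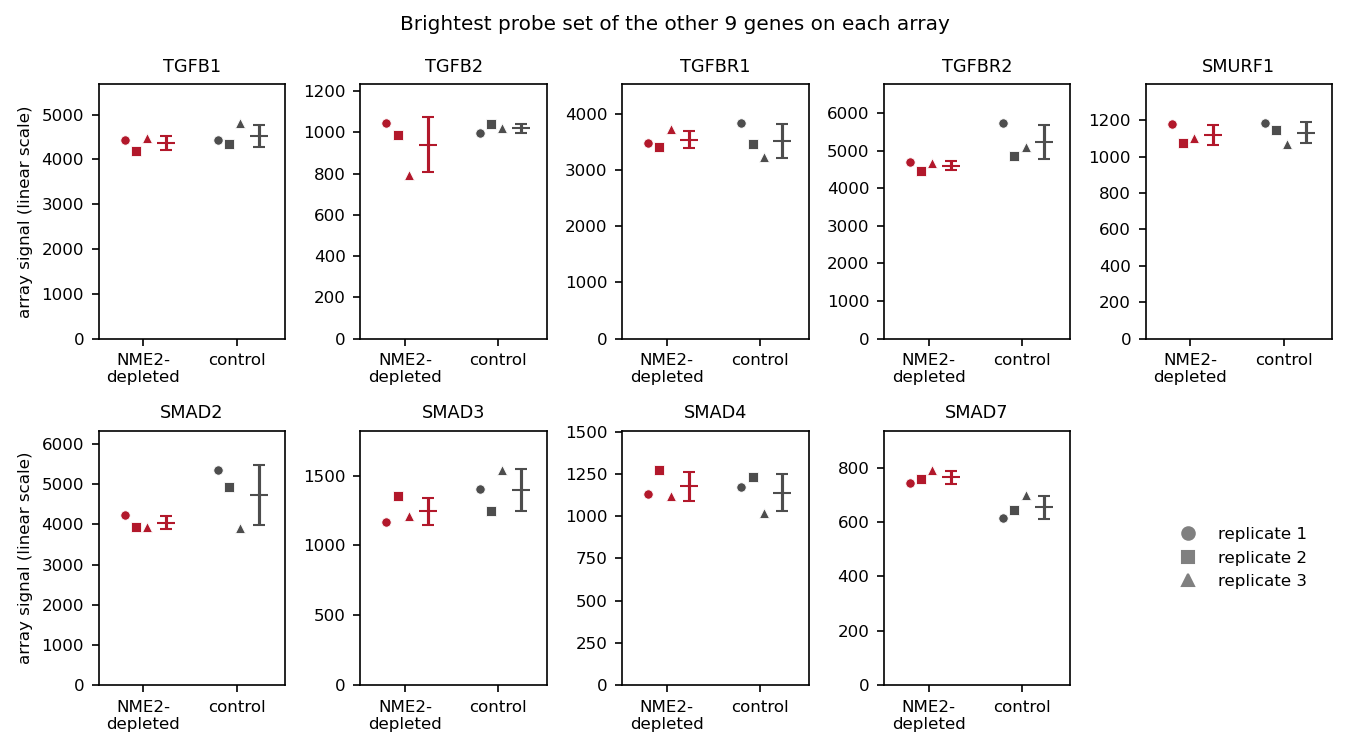
Array signal (linear scale, vertical axis) at the brightest probe set of TGFB1, TGFB2, TGFBR1, TGFBR2, SMURF1 and 4 SMADs, NME2-depleted arrays left (red) and control arrays right (grey). Symbols are replicates, and bars are the mean and SD of 3 arrays; the groups are apart for TGFBR2 and SMAD7.

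SMAD3 and SMAD2, the signal carriers of the pathway, had lower means at most probe sets and no call. SMAD3 had a lower mean at all 4. The brightest had 1167, 1354 and 1213 in NME2-depleted arrays, against 1402, 1244 and 1543 in control arrays, and overlapped (log2 difference -0.16, SE 0.10, adjusted p = 0.550). The difference was larger at the third, which had 387.1, 528.2 and 505.5 in NME2-depleted arrays, against 824.1, 600.3 and 688 in control arrays (-0.57, SE 0.15, adjusted p = 0.141). The x suffix of that probe set marks sequence shared with other transcripts, so it may not measure SMAD3 alone. The second, with 1116, 1035 and 936.1 in NME2-depleted arrays and 1224, 1213 and 1671 in control arrays, was also apart (-0.40, SE 0.13, adjusted p = 0.222). The dimmest gave -0.19 and overlapped. The 4 SMAD3 estimates ran from -0.57 to -0.16, and the spread among them was not tested.

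SMAD2 had 6 probe sets, of which 5 were tested and 4 of these had a lower mean, with log2 differences from -0.22 to -0.16. The brightest had 4227, 3946 and 3947 in NME2-depleted arrays, against 5360, 4922 and 3917 in control arrays (log2 difference -0.22, SE 0.10, adjusted p = 0.413). Control replicate 3 lay level with the depleted arrays here, and the groups overlapped. At the second all depleted arrays, with 3339, 3573 and 3132, were below the control arrays, with 3783, 4292 and 3642 (-0.22, SE 0.08, adjusted p = 0.303). The groups were also apart at the fourth (-0.20), whereas the dimmest tested gave 0.06.

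SMAD4, the shared partner of the other SMADs, had 1131, 1274 and 1121 in NME2-depleted arrays, against 1170, 1231 and 1017 in control arrays, with overlap (log2 difference 0.05, 95% interval -0.18 to 0.27). Its 3 other tested probe sets gave 0.16, 0.28 and -0.18, and the difference at the brightest turned to -0.01 without NME2-depleted replicate 2 and to -0.03 without control replicate 3. SMAD7, the inhibitor that works with the SMURF ligases, was measured by a single probe set. It had 744.6, 756.4 and 791.9 in NME2-depleted arrays, against 614, 644.8 and 700.4 in control arrays. All depleted arrays lay above all control arrays, by a log2 difference of 0.23 (1.17-fold, SE 0.10), but the adjusted p of 0.376 missed the threshold.

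**Figure D3:**
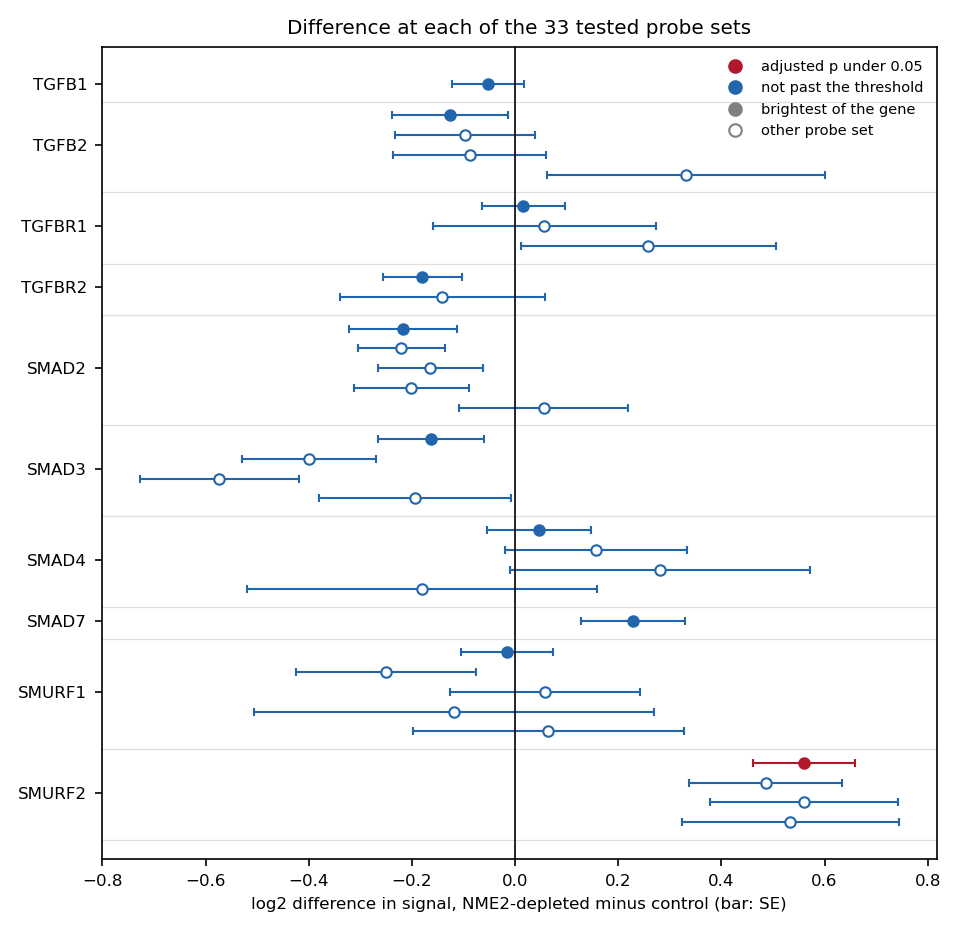
Log2 difference in signal, NME2-depleted minus control (horizontal axis), at the 33 tested probe sets of the 10 genes. Points are estimates with SE bars, filled for the brightest probe set of a gene, and the 4 SMURF2 probe sets lie between 0.49 and 0.56.

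Of the 37 probe sets 33 passed the filter on dim signals, and the other 4, of SMAD2, SMAD4, TGFB1 and TGFB2, were not tested. The 33 held 15 higher and 18 lower means, with a median log2 difference of -0.05, against 0.01 over all tested probe sets. Apart from SMURF2, 29 probe sets were tested, of which 11 were higher and 18 lower, and 0 passed the threshold by limma, with 5 at an unadjusted p under 0.05 (17.2%, against 12.9% of all probe sets). The methods' t-test, unadjusted, passed 2 of these 29, of SMAD7 and SMAD3, and 11.2% of all tested probe sets, and it passed 0 of either after Benjamini-Hochberg adjustment. Groups did not overlap at 6 of the 29 (20.7%), against 18.6% of all tested probe sets, which is near the share of the array as a whole. At 1 of the 6 (SMAD7) the depleted arrays lay above, as at 9.66% of all tested probe sets, and at 5 (SMAD2, SMAD3 and TGFBR2) below, as at 8.91%. At the level of genes, each given by its brightest tested probe set, 0 of the 9 other than SMURF2 were called, where 0.54% of all 12406 genes were, 0.145% higher and 0.395% lower. Groups did not overlap in 2 of these 9, SMAD7 and TGFBR2 (22.2%, near the 20.6% of all genes).

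The expression profile most like that of SMURF2 was sought among all genes. Each log2 profile over the 6 arrays was centred on its own mean, and the root mean square distance to the SMURF2 profile was taken as a description, since a gene with a like difference between groups is close by construction. LRRN2, a leucine-rich repeat membrane protein, was nearest at 0.06, with signals of 287.1, 286.1 and 280.3 in NME2-depleted arrays, against 238, 191.2 and 200.7 in control arrays. ZEB2, a zinc finger repressor of epithelial genes, followed at 0.07, with 196, 190.6 and 216.3 in NME2-depleted arrays, against 155.4, 126.6 and 143.3 in control arrays. FRMD6, a scaffold protein of the Hippo pathway, lay at 0.08, with 2793, 2747 and 2749 in NME2-depleted arrays, against 1902, 1720 and 1692 in control arrays. MATCAP2 and ADRB1, the beta-1 adrenergic receptor, were also at 0.08. In these 5 genes, as in SMURF2, control replicate 1 was the highest control array, and FRMD6 alone was called. The distance covers all 6 arrays, so a like order of the control arrays also follows from the choice and is not a finding. Among the other 9 pathway genes SMAD7 was nearest to SMURF2, at 0.22, and SMAD2 farthest, at 0.41, where the median of all genes was 0.34.

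A further 106 genes of TGF-beta signalling were listed by role. Of these 88 had a tested probe set, 12 were under the filter and 6 had no probe set of their own here. They held 43 higher and 45 lower means, with a median log2 difference of -0.00196, against 0.000644 over all genes. By limma 1 of 88 passed, and it was higher, against 0.54% of all genes, and 22 had an unadjusted p under 0.05 (25%, against 15% of all genes). Groups did not overlap in 25 of the 88 (28.4%, against 20.6% of all genes), with depleted arrays above in 16 and below in 9.

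The called gene was COL4A1, a basement membrane collagen induced by TGF-beta. It had 2996, 2513 and 2572 in NME2-depleted arrays, against 1935, 1498 and 1739 in control arrays, a log2 difference of 0.65 (SE 0.11, adjusted p = 0.0322). All depleted arrays lay above all control arrays, as they did at its second probe set (0.56), which missed the threshold (adjusted p = 0.113). The call was kept without control replicate 1 (adjusted p = 0.033) and missed when any of the other 5 was left out (adjusted p from 0.0673 to 0.13), and it was missed with median centring too (0.0568). COL4A2, its partner chain in type IV collagen, had 5986, 4579 and 4935 in NME2-depleted arrays, against 3923, 3093 and 3455 in control arrays (0.56, SE 0.11, adjusted p = 0.058), which missed the threshold, as did the adhesion protein CDH2 (0.31, adjusted p = 0.103). The second COL4A2 probe set gave 0.54 with overlap. Of the 26 measured transcripts of this list 13 were higher and 13 lower, with a median of 0.00251 and 9 at an unadjusted p under 0.05 (34.6%, against 15% of all genes). Groups did not overlap in 7 (26.9%, against 20.6% of all genes), with depleted arrays above in 6. They lay below in 1, ID1, which had the largest difference of the list (-0.75, SE 0.19, limma adjusted p = 0.117). The list mixes transcripts that TGF-beta induces and represses, so its balance of signs has no direction to be read.

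Ligands, latency proteins and activators held 11 measured genes with 6 higher and 5 lower means, a median of 0.16 and 0 calls, with 5 at an unadjusted p under 0.05 (45.5%, against 15% of all genes). Groups did not overlap in 5 (45.5%, against 20.6% of all genes), with depleted arrays above in 4 and below in 1. THBS1, thrombospondin 1, which can release active TGF-beta from its latent form, had 518.1, 609.4 and 473.2 in NME2-depleted arrays, against 394.2, 340.5 and 368.8 in control arrays (log2 difference 0.53, SE 0.14, adjusted p = 0.124). The groups did not overlap. The 2 other tested THBS1 probe sets gave 0.56 without overlap and 0.08 with overlap. ITGAV, an integrin chain that binds latent TGF-beta, and LTBP2, a matrix protein listed with the latency proteins, were also apart between groups, with differences of 0.21 and 0.24 (adjusted p = 0.211 and 0.266). The largest difference of the list went the other way, at GDF11 (-0.75, SE 0.28, limma adjusted p = 0.281), with all depleted arrays below.

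Other receptors and co-receptors held 6 measured genes, 3 higher and 3 lower, with 0 calls and 0 at an unadjusted p under 0.05 (against 15% of all genes). ACVR1, a type I receptor of the wider family, had 0.14, the activin receptor ACVR2B 0.48 and the receptor-associated TGFBRAP1 -0.17, with adjusted p-values from 0.417 to 0.593. Other SMADs, their partners and their inhibitors held 5 higher and 13 lower means of 18 and a median of -0.09, with 0 calls and 4 at an unadjusted p under 0.05 (22.2%, against 15% of all genes). Groups did not overlap in 4 (22.2%, against 20.6% of all genes), with depleted arrays below in each. CREBBP, a histone acetyltransferase that SMADs recruit, had 1642, 1708 and 1439 in NME2-depleted arrays, against 1961, 2370 and 2152 in control arrays (log2 difference -0.44, SE 0.10, adjusted p = 0.0894). The groups were apart, although of its 2 other tested probe sets 1 gave 0.30. BAMBI, a decoy receptor, and FKBP1A, which binds TGFBR1, had -0.29 and -0.16 (adjusted p = 0.297 and 0.379).

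Of the other ubiquitin ligases of the SMURF family and their adaptors, 7 of 9 had a higher mean, with a median of 0.12, 0 calls and 1 at an unadjusted p under 0.05 (11.1%, against 15% of all genes). That 1 was NDFIP2, an adaptor that activates such ligases, with 2267, 2354 and 2352 in NME2-depleted arrays, against 1939, 2059 and 1810 in control arrays (log2 difference 0.27, SE 0.08, adjusted p = 0.177). Its 2 other tested probe sets gave 0.18 and -0.09, both with overlap. WWP1 and NEDD4, relatives of SMURF2, had 0.14 and 0.12, and all depleted arrays were above all control arrays in both (adjusted p = 0.426 and 0.495). Groups did not overlap in 4 of the 9 (44.4%, against 20.6% of all genes), with depleted arrays above in 3 and below in 1. Of the 8 other ligases and deubiquitinases 5 were higher and 3 lower, with 0 calls and 2 at an unadjusted p under 0.05 (25%, against 15% of all genes). RNF11, a SMURF2-binding protein, had 0.24, RNF111, a ligase that removes SMAD inhibitors, 0.11, and the deubiquitinase USP11 -0.23 (adjusted p from 0.178 to 0.580). In 3 of the 8 the groups did not overlap (37.5%, against 20.6% of all genes). Depleted arrays lay above in RNF11 and RNF111 and below in USP11.

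In the branch that signals without SMADs, 4 of 10 measured genes were higher and 6 lower, with a median of -0.03, 0 calls by the brightest probe set and 1 at an unadjusted p under 0.05 (10%, against 15% of all genes). MAP3K7, the kinase TAK1, had 741.2, 765.8 and 715.3 in NME2-depleted arrays, against 1034, 1053 and 842.8 in control arrays (log2 difference -0.39, SE 0.11, adjusted p = 0.155). All depleted arrays were below all control arrays at each of its 4 probe sets, a detail taken up after the values were seen. The other 3 gave -0.57, -0.64 and -0.55, and the third brightest, with 391.9, 409.6 and 420 in NME2-depleted arrays and 647, 666.5 and 593.5 in control arrays, passed the threshold (SE 0.11, adjusted p = 0.0403). All 4 MAP3K7 probe sets have an s or x suffix, so each may share sequence with other transcripts. Depleted arrays all lay below at 8.91% of all tested probe sets. The called MAP3K7 probe set was 1 of the 2 called among 192 tested for all the listed genes, where 0.396% of all tested probe sets were called. TRAF6, a ligase upstream of TAK1, had -0.28 and the kinase ROCK1 0.08, both with overlap (adjusted p = 0.448 and 0.722).

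**Figure D4:**
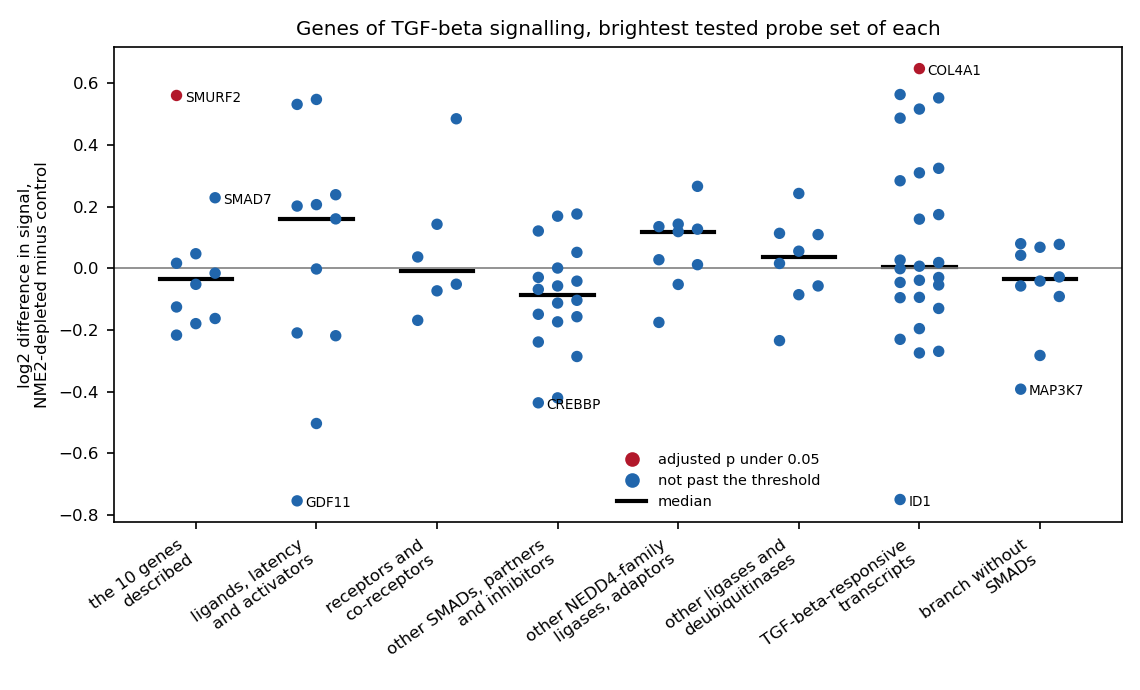
Log2 difference in signal, NME2-depleted minus control (vertical axis), for the 10 genes described and for 88 listed genes of TGF-beta signalling by role. Each point is a gene at its brightest tested probe set, black bars are medians, and SMURF2 (0.56) and COL4A1 (0.65) are the called genes.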

How the data were processed

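Total RNA of 6 A549 samples was converted to biotin-labelled cRNA and hybridised to Affymetrix HG-U133 Plus 2.0 arrays, 1 per sample. The authors deposited 1 linear intensity per probe set and array, made with GCOS 1.1.1 according to the submitters' processing notes, and the change test of that software was not rerun. The authors had scaled all arrays alike, since the mean after trimming 2% at each end was 500.06 to 500.07 in each. Such scaling hides a shift shared by all transcripts. Neither detection calls nor raw scans were used. An array has no read depth, so precision rests on the 3 arrays of each group.

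The 62 control probe sets were left out, signals under 1 were set to 1 (0.327% of values), and log2 was taken. Genes were named from the platform annotation of 2016, and the brightest tested probe set stood for its gene. Groups and replicate numbers came from the sample titles. At most 0.297% of values were the same in any of the 15 pairs of arrays. The two-sided test was that of limma 3.58.1, run in R 4.3.3 by lmFit and eBayes with the trend option, with Benjamini-Hochberg adjustment and a threshold of 0.05, after the procedure was tested on simulated data. Student's test, which the study's supplement names for expression after NME2 depletion, was run as an alternative and is called the methods' t-test. No list was tested as a set. The genes described and the lists were chosen with earlier results of these data known. From each list, called genes and those of lowest p, up to 3 in all, were named, with the 5 genes nearest to SMURF2 in profile. ID1 and GDF11 were added after the values were seen. Genomic positions are given for RefSeq promoters only.

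As alternatives, arrays were quantile-normalized, centred on the median or fitted by cyclic loess, 16 was added before log2, the filter on dim signals was dropped or raised, and probe sets with an s or x suffix were left out. The variance was also fitted without the trend, robustly, with array weights or with the replicate number as a block, all probe sets of a gene were averaged, and each array was left out in turn.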

Additional observations from a re-analysis of the deposited data

How the results depend on the processing

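SMURF2 was higher under all 20 alternatives, with log2 differences from 0.47 to 0.66, and missed the threshold under 11 of them. These were median centring (0.51), no filter on dim probe sets (0.56), shared probe sets left out (0.49), no intensity trend (0.56), the methods' t-test after Benjamini-Hochberg adjustment (0.56), the average over all probe sets of each gene (0.53) and 5 of the 6 fits without an array (0.47 to 0.66 over the 6). With shared probe sets left out, the value came from the second brightest SMURF2 probe set, since the called one has an s suffix and was itself removed. Adjusted p-values over all 20 ran from 0.0206 to 0.279, and the cause was not tested.

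The 108 called probe sets became 30 with no filter, 192 with the filter at the 75th percentile, 61 without shared probe sets, 0 with no intensity trend (3130 at an unadjusted p under 0.05), 3065 by the methods' t-test unadjusted and 0 after adjustment, and 19 to 70 without an array. Median centring gave 20 higher and 107 lower, against 32 and 76. Of the 10 genes 0 were called under those same alternatives that lost SMURF2, 2 by the methods' t-test unadjusted (SMAD7 and SMURF2), and 0 or 1 without an array. Of the 88 listed genes 0 were called with median centring, no filter, no intensity trend, the adjusted t-test or the mean of probe sets, 2 with the filter at the 75th percentile, 18 by the unadjusted t-test, and 0 to 2 without an array. The unadjusted t-test passed 11.2% of all tested probe sets. The share of all genes was not taken under these alternatives, so these counts are not read further.

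The replicate numbers were not taken as pairs. Same-numbered arrays deviated together with correlations of 0.11, 0.08 and 0.07, each array best with its own number, which is a hint from the data and not from the design. With the replicate number as a block 464 probe sets passed, the 10 genes still held 1 call, SMURF2 (0.56, adjusted p = 0.0206), and 7 listed genes passed (COL4A1, COL4A2, ITGAV, CREBBP, BAMBI, CDKN1A and ID1).

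Small differences changed sign. SMAD4 was -0.0013 and TGFBR1 -0.0321 with median centring, and TGFB2 was 0.0052 with the mean of its probe sets. With single arrays left out, SMURF1 ranged from -0.0568 to 0.0166, SMAD4 from -0.0325 to 0.105 and TGFBR1 from -0.0416 to 0.0815. All other values of the 30 genes other than SMURF2 that were refitted, the 9 others described and 21 listed ones, kept their sign. The genes of like profile and the cell type markers were not refitted.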
